A study of Homo sapiens with 4 samples.

Results

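The 35 genes described here act in homologous recombination and in the Fanconi anemia pathway of DNA crosslink repair. They were chosen by name, as the rows of the deposited table whose gene symbol equals a listed member, and all 35 were found among its 19389 protein-coding genes. Their mRNA was sequenced from SW620, an established cell line from a human colorectal cancer, with 2 H2O2-treated and 2 control libraries. The treatment was hydrogen peroxide, which oxidizes cell components, for 2 days at a dose that the sample labels give as 150 µM and the series' design text in mM. The control cells were SW620 cells without that treatment. The series title describes H2O2-treated cells as senescent, and the comparison asks which mRNAs differ between H2O2-treated and control cells. Values are FPKM, fragments per unit of transcript length and of mapped fragments, so levels can be compared between genes, and read depth is unknown. The labels do not say whether the libraries are separate cultures. The p-values below therefore rest on a spread between libraries that may be technical.

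Homologous recombination repairs a broken chromosome by copying the intact sister, and cells use it mainly while they replicate DNA and before they divide. The MRE11-RAD50-NBN complex and the RBBP8 product (CtIP) begin to trim the broken ends, BRCA1 with BARD1 and PALB2 brings in BRCA2, and BRCA2 with further proteins readies the single strand to find the sister sequence. In the Fanconi pathway a core complex of several proteins attaches ubiquitin to FANCD2 and FANCI at DNA crosslinks. The kinases ATM and ATR signal the damage to CHEK2 and CHEK1. Hydrogen peroxide oxidizes bases and breaks single strands, and such lesions can become double-strand breaks when a replication fork meets them.

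Transcription of many of these genes is linked to the cell cycle through E2F factors, so the promoters that carry an E2F-type word are shown, with those of the BRCA1 and BARD1 pair beside them. RefSeq promoter windows on GRCh38.p14, each 300 bases long and mostly upstream of a gene's start, were found for 32 of the 35 genes, 44 windows in all. Any of the words TTTCCCGC, TTTCGCGC, TTTGCCGC or TTTGGCGC, on either strand, stood in 5 of the 44 windows (11.4%), in 5.04% of the 13144 windows of tested genes and in 3.31% of all 35116 windows. The word TTTGAA, the core of a cell-cycle element, was in 4 of the 44 windows (9.09%), in 9.79% of the windows of tested genes and in 15.2% of all. CCAAT was in 18 of the 44 windows (40.9%), in 34.7% of the windows of tested genes and in 34.6% of all. The windows lie at chr7:152676092-152676391 for XRCC2, chr1:241847954-241848253 for EXO1, chr16:89816598-89816897 for FANCA, chr9:95317660-95317959 for FANCC, chr3:10026187-10026486 for FANCD2, chr17:43125315-43125614 for BRCA1 and chr2:214809634-214809933 for BARD1. EXO1 and FANCD2 are on the plus strand and the others on the minus strand. The sequences run 5′ to 3′ on the gene's strand, with the 3 kinds of word in capitals.
XRCC2: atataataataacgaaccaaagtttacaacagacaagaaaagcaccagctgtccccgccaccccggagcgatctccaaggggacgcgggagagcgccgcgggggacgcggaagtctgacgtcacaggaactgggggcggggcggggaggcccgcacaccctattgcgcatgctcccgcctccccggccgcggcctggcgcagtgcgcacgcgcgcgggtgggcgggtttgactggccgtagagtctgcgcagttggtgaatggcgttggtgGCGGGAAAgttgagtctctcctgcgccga
EXO1: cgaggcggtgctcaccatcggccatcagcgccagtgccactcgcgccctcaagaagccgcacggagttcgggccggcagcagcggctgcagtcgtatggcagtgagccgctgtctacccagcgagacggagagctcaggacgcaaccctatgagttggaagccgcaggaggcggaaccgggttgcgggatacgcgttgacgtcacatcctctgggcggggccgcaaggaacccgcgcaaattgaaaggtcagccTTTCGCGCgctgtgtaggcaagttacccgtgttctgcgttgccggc
FANCA: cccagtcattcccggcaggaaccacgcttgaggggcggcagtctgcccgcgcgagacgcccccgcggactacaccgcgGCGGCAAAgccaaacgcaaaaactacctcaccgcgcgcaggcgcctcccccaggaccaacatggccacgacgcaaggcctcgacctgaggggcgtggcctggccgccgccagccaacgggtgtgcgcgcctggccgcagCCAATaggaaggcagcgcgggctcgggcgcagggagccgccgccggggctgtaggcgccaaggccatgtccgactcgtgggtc
FANCC: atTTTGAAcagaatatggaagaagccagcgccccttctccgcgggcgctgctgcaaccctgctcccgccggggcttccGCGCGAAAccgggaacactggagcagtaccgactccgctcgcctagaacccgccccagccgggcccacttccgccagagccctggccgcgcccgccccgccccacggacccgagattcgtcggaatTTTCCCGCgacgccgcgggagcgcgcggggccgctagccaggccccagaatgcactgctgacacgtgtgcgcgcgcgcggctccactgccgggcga
FANCD2: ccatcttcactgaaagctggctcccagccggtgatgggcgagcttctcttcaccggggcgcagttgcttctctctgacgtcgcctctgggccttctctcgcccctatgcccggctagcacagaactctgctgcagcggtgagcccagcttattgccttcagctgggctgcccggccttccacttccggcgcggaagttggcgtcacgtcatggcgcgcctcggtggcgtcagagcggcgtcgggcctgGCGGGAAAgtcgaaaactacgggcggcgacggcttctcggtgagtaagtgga
BRCA1: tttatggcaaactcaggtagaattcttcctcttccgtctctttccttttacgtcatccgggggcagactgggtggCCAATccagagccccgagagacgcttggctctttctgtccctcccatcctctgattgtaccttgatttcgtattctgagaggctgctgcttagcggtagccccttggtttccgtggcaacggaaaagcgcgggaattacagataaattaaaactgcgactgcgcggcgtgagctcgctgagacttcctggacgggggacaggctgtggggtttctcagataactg
BARD1: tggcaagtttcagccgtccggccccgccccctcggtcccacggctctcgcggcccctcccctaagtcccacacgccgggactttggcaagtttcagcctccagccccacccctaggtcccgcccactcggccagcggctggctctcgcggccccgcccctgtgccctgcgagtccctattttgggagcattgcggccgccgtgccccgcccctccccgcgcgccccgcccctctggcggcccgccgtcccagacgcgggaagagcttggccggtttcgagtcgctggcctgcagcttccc
XRCC2, EXO1, FANCA and FANCD2 each hold 1 E2F-type word, FANCC holds 2 of them and a TTTGAA, FANCA and BRCA1 each hold a CCAAT, and the BARD1 window holds none of the words. EXO1, FANCC and BRCA1 each have another window, not shown, that holds none of the words. A match describes the letters of the window and is not a measured binding site. The 5 genes with E2F-type words did not share a direction in the values below: the log2 change was positive for XRCC2 and EXO1 and negative for FANCA, FANCC and FANCD2, and the sign turned for FANCD2 after rescaling to TPM and for FANCD2 and FANCA without control 2.

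None of the 35 genes differed between H2O2-treated and control cells by limma, a linear model fitted to log2(FPKM + 1) of the 11318 genes that reached 1 FPKM in 2 or more libraries. At a Benjamini-Hochberg adjusted p under 0.05, 0 of 35 passed, and 0% of all genes tested did. At an unadjusted p under 0.05, 0 of 35 were higher and 0 lower in H2O2-treated cells, where 6.22% of all genes tested were higher and 4.91% lower (704 and 556 genes). All 35 had at least 1 FPKM in each library, so none entered the test through 1 group only. The median log2 change of the 35 was -0.02 and that of all genes tested -0.03, with 16 genes above 0 and 19 below, against 45.7% above 0 among all genes.

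The intervals show what sizes these libraries can tell apart. The 95% interval of the log2 change covered 0 for all 35 genes, with a median half-width of 0.48. For 33 of the 35 genes it lay between -1 and 1, that is, short of a 2-fold difference in FPKM + 1. The exceptions were BARD1, whose interval reached -1.02, and XRCC2, whose interval reached 1.08. The interval lay within 1.5-fold either way for 10 genes only, so smaller changes of the others were not resolved here. An interval that covers 0 does not show that a level stayed the same. These intervals hold for FPKM as deposited. Rescaling to TPM moved the median log2 change of the 35 genes to 0.13, and intervals on that scale are not given here.

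**Figure D1:**
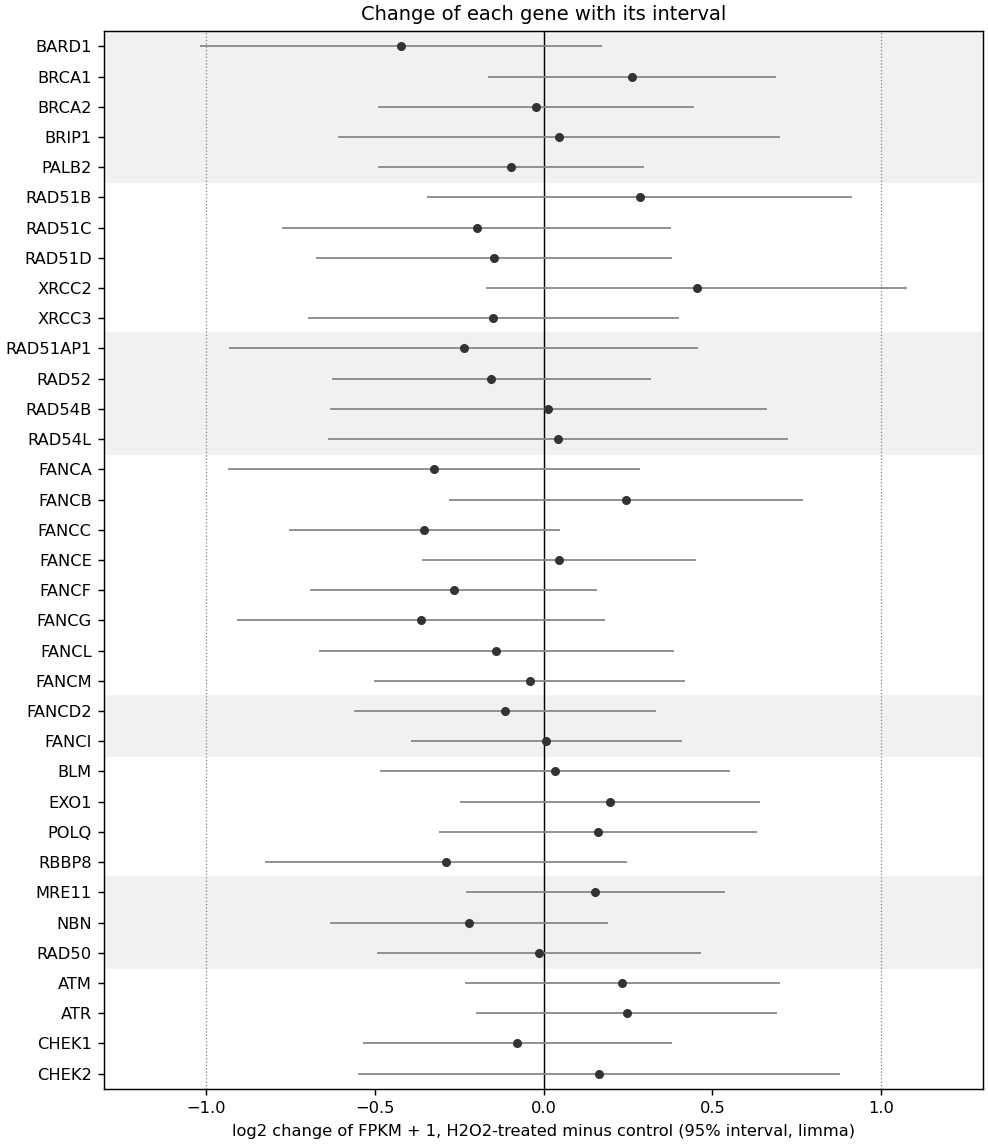
Log2 change of FPKM + 1 (H2O2-treated minus control, x axis) of the 35 genes (y axis, shaded by role) with 95% intervals from limma; dotted lines mark -1 and 1. Each interval crosses 0, and those of BARD1 and XRCC2 pass a dotted line.

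Levels spanned from 2.85 FPKM for BRCA2 to 51.3 FPKM for CHEK1 as means over the 4 libraries. There were 7 genes above 20 FPKM, among them CHEK1, RAD51C, RBBP8, FANCI and RAD51AP1, and 6 below 5 FPKM, BRCA2, POLQ, RAD51B, FANCM, FANCB and BARD1. CHEK1 stood at percentile 83.2 of mean FPKM among all genes tested and BRCA2 at percentile 12.3.

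**Figure D2:**
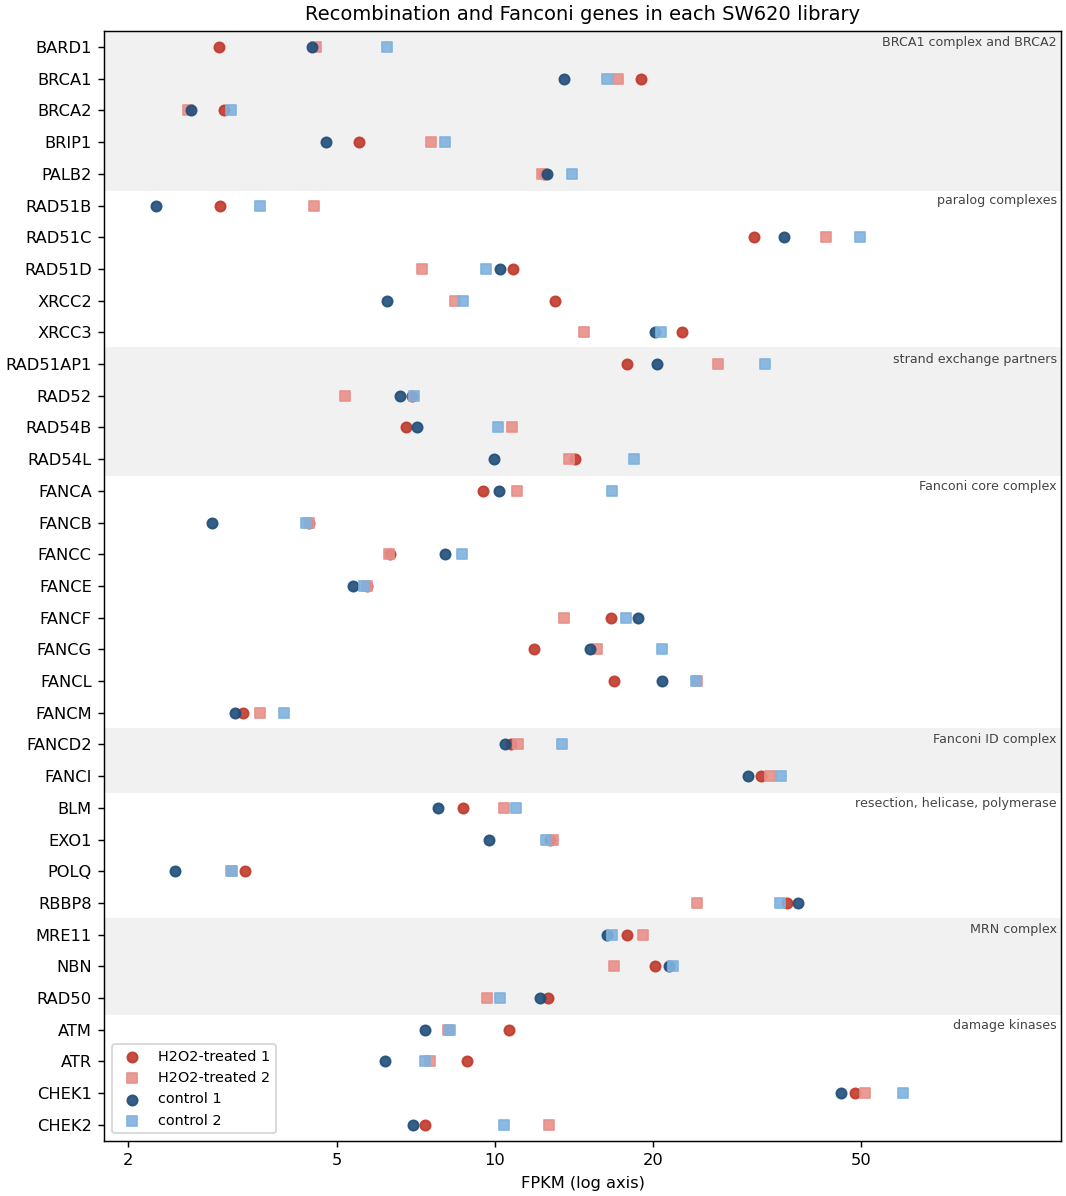
FPKM of the 35 genes in each library (log axis), red for H2O2-treated and blue for control, circles for library 1 and squares for library 2. Control 1 is the lowest point for 18 genes and control 2 the highest for 17.

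Among BRCA1 and its partners, both subunits of the BRCA1-BARD1 ubiquitin ligase were measured and lay on opposite sides of 0. BRCA1 had 19.04 and 17.2 FPKM in H2O2-treated cells, against 13.6 and 16.4 FPKM in controls. Both treated values were above both controls, and the log2 change was 0.26 ± 0.18 (SE; limma adjusted p = 0.644). BARD1, which BRCA1 needs for stability and ligase activity, had 2.98 and 4.55 FPKM in H2O2-treated cells, against 4.48 and 6.23 FPKM in controls. The groups overlapped slightly, with treated 1 the lowest of the 4, and the log2 change was -0.42 ± 0.25 (SE; limma adjusted p = 0.594). BRCA2, which acts at the resected end, had 3.04 and 2.60 FPKM in H2O2-treated cells, against 2.63 and 3.14 FPKM in controls. PALB2, which joins BRCA1 to BRCA2, had 12.4 and 12.3 FPKM in H2O2-treated cells, against 12.6 and 14.0 FPKM in controls. The helicase gene BRIP1 (FANCJ) had 5.50 and 7.55 FPKM in H2O2-treated cells, against 4.77 and 8.04 FPKM in controls. For BRIP1 the gap between the libraries of a group was larger than that between the group means.

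The paralog genes RAD51B, RAD51C, RAD51D, XRCC2 and XRCC3, whose proteins form complexes that assist strand exchange, did not share a pattern. XRCC2 had the largest log2 change of the 35, 0.45 ± 0.26 (SE; limma adjusted p = 0.59). Its values were 13.0 and 8.39 FPKM in H2O2-treated cells, against 6.24 and 8.68 FPKM in controls, so treated 1 alone was above the controls. RAD51D, which pairs with XRCC2 in the BCDX2 complex, had 10.8 and 7.25 FPKM in H2O2-treated cells, against 10.2 and 9.64 FPKM in controls. RAD51B, in the same complex, had 2.996 and 4.52 FPKM in H2O2-treated cells, against 2.25 and 3.57 FPKM in controls. In RAD51B library 2 was above library 1 in both groups. RAD51C, common to both paralog complexes, had 31.3 and 42.8 FPKM in H2O2-treated cells, against 35.7 and 49.7 FPKM in controls. XRCC3, its other partner, had 22.7 and 14.8 FPKM in H2O2-treated cells, against 20.2 and 20.7 FPKM in controls. The XRCC3 values of treated cells enclosed those of the controls.

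Among genes that assist strand exchange, RAD51AP1 and RAD54B were higher in library 2 than in library 1 of both groups. RAD51AP1, a cofactor of strand exchange, had 17.9 and 26.6 FPKM in H2O2-treated cells, against 20.4 and 32.7 FPKM in controls. RAD54B, a motor protein of the SWI2/SNF2 family, had 6.78 and 10.8 FPKM in H2O2-treated cells, against 7.09 and 10.1 FPKM in controls. Its relative RAD54L, which remodels the joint between the DNA molecules, had 14.2 and 13.9 FPKM in H2O2-treated cells, against 9.97 and 18.4 FPKM in controls. The controls of RAD54L lay on either side of both treated libraries and differed from each other 1.85-fold, the widest gap between controls among the 35. RAD52, which anneals single strands, had 6.94 and 5.18 FPKM in H2O2-treated cells, against 6.59 and 7.01 FPKM in controls.

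In the Fanconi core complex 2 of 8 genes had a positive log2 change, FANCB and FANCE, where 45.7% of all genes tested did. The median of the 8 was -0.20. After rescaling to TPM, FANCL (0.0387) and FANCM (0.11) were positive too, while FANCA, FANCC, FANCF and FANCG stayed negative. FANCC had the smallest unadjusted p of the 35 (0.0747 by limma). It had 6.31 and 6.29 FPKM in H2O2-treated cells, against 8.02 and 8.64 FPKM in controls, a log2 change of -0.35 ± 0.17 (SE; adjusted p = 0.503; 95% interval -0.75 to 0.05). Both treated libraries were below both controls and were nearly equal. FANCF, the adaptor of the complex, was also lower without overlap, at 16.6 and 13.6 FPKM in H2O2-treated cells and 18.8 and 17.8 FPKM in controls (log2 change -0.27 ± 0.18, SE; adjusted p = 0.638). FANCE, which binds FANCD2, had 5.71 and 5.70 FPKM in H2O2-treated cells, against 5.37 and 5.62 FPKM in controls. FANCE was narrowly above both controls, and its sign turned after quantile normalization.

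FANCA and FANCG, which bind each other in the core complex, were both highest in control 2. FANCA had 9.49 and 11.02 FPKM in H2O2-treated cells, against 10.2 and 16.7 FPKM in controls. FANCG had 11.9 and 15.7 FPKM in H2O2-treated cells, against 15.2 and 20.9 FPKM in controls (log2 change -0.36 ± 0.23, SE; adjusted p = 0.616). FANCL, the ubiquitin ligase of the complex, had 16.9 and 24.3 FPKM in H2O2-treated cells, against 20.8 and 24.2 FPKM in controls. FANCB, in the catalytic module with FANCL, had 4.41 and 4.42 FPKM in H2O2-treated cells, against 2.89 and 4.36 FPKM in controls. Treated libraries and control 2 nearly coincided for FANCB, and control 1 stood apart. FANCM, the translocase that anchors the complex at DNA, had 3.30 and 3.57 FPKM in H2O2-treated cells, against 3.19 and 3.97 FPKM in controls. FANCD2 and FANCI, the substrates of the complex, had log2 changes of -0.11 and 0.01. FANCD2 had 10.7 and 11.1 FPKM in H2O2-treated cells, against 10.5 and 13.4 FPKM in controls. FANCI had 32.2 and 33.5 FPKM in H2O2-treated cells, against 30.3 and 35.2 FPKM in controls, with a 95% interval of -0.39 to 0.41 on the log2 scale.

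Of the genes for end processing, RBBP8 had 36.1 and 24.3 FPKM in H2O2-treated cells, against 37.9 and 34.9 FPKM in controls. Treated 2 alone was low for RBBP8, and without treated 2 its log2 change of -0.29 was -0.01. EXO1, the long-range resection nuclease, had 12.8 and 12.9 FPKM in H2O2-treated cells, against 9.75 and 12.5 FPKM in controls. Both EXO1 values of treated cells exceeded the controls, though treated 2 passed control 2 by a narrow margin. The helicase gene BLM had 8.69 and 10.4 FPKM in H2O2-treated cells, against 7.80 and 10.98 FPKM in controls. POLQ, the polymerase of a backup end-joining route, had 3.34 and 3.13 FPKM in H2O2-treated cells, against 2.46 and 3.15 FPKM in controls.

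The MRN complex, which senses breaks and activates ATM, had members on both sides. MRE11, its nuclease, had 17.9 and 19.2 FPKM in H2O2-treated cells, against 16.4 and 16.7 FPKM in controls (log2 change 0.15 ± 0.16, SE; adjusted p = 0.777). NBN, which binds ATM, had 20.2 and 16.9 FPKM in H2O2-treated cells, against 21.5 and 21.9 FPKM in controls (log2 change -0.22 ± 0.17, SE; adjusted p = 0.69). RAD50, its zinc hook and ATPase, had 12.6 and 9.67 FPKM in H2O2-treated cells, against 12.2 and 10.2 FPKM in controls. MRE11 was above and NBN below both controls without overlap, while library 1 was above library 2 in both groups for RAD50.

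Of the damage kinases, ATM, ATR and CHEK2 averaged above the controls and CHEK1 below. ATR, which answers single-stranded DNA, had 8.86 and 7.54 FPKM in H2O2-treated cells, against 6.17 and 7.35 FPKM in controls (log2 change 0.25 ± 0.18, SE; adjusted p = 0.68). ATM, which answers double-strand breaks and also oxidation, had 10.7 and 8.15 FPKM in H2O2-treated cells, against 7.36 and 8.22 FPKM in controls. ATM was above both controls in treated 1 only. CHEK1, the target of ATR, had 48.6 and 50.8 FPKM in H2O2-treated cells, against 45.8 and 60.0 FPKM in controls. CHEK2, the target of ATM, had 7.35 and 12.7 FPKM in H2O2-treated cells, against 6.99 and 10.4 FPKM in controls. The CHEK2 gap between libraries of a group exceeded the gap between group means. The sign for CHEK1 turned under all 3 other scalings, TPM, upper-quartile and quantile.

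Counted over the 35, both treated libraries were above both controls for 6 genes, BRCA1, ATR, FANCB, EXO1, MRE11 and FANCE, that is 17.1%, where 19.3% of all genes tested were. Both were below both controls for 4 genes, FANCC, FANCF, NBN and PALB2, that is 11.4%, where 24% of all genes tested were. Together the groups did not overlap for 10 genes (28.6%), where 43.2% of all genes tested did not. With 2 libraries against 2, an exact permutation test of a single gene cannot give a two-sided p below 0.333. In 15 of the 35 genes the sign of the log2 change was the same under each of the 13 other settings in which the gene was tested, which were 12 for BARD1, RAD51B, FANCB and POLQ. Of these, 9 were positive (BRCA1, ATM, ATR, MRE11, EXO1, POLQ, FANCB, RAD51B and XRCC2) and 6 negative (BARD1, FANCC, FANCF, FANCG, NBN and RBBP8). The other filters, the fit without a variance trend and the replicate block leave a log2 change as it is, so they could not turn a sign. Every sign that turned did so under another scaling or with a library left out. The share of all genes tested that kept their sign is not given here.

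The libraries of a group differed from each other as much as the groups did. Control 2 was above control 1 for 31 of the 35 genes, where 49.5% of all genes tested were, and the median difference was 0.25 on the log2 scale against 0.00 over all genes. The exceptions were RAD50, RAD51D, FANCF and RBBP8. Treated 2 was above treated 1 for 18 of 35, where 49.2% of all genes were, with a median difference of 0.00. For 22 of the 35 genes the gap between the controls exceeded that between the group means, as it did for 44.5% of all genes tested. The choice of control therefore moved the median log2 change of the 35: it was -0.17 without control 1 and 0.08 without control 2, while the median of all genes was -0.03 in each case. Library 2 was above library 1 in both groups for the same 18 genes, where 31.7% of all genes tested were. The other 13 genes with control 2 above control 1, such as XRCC2, XRCC3, ATM and RAD52, had treated 2 below treated 1.

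**Figure D3:**
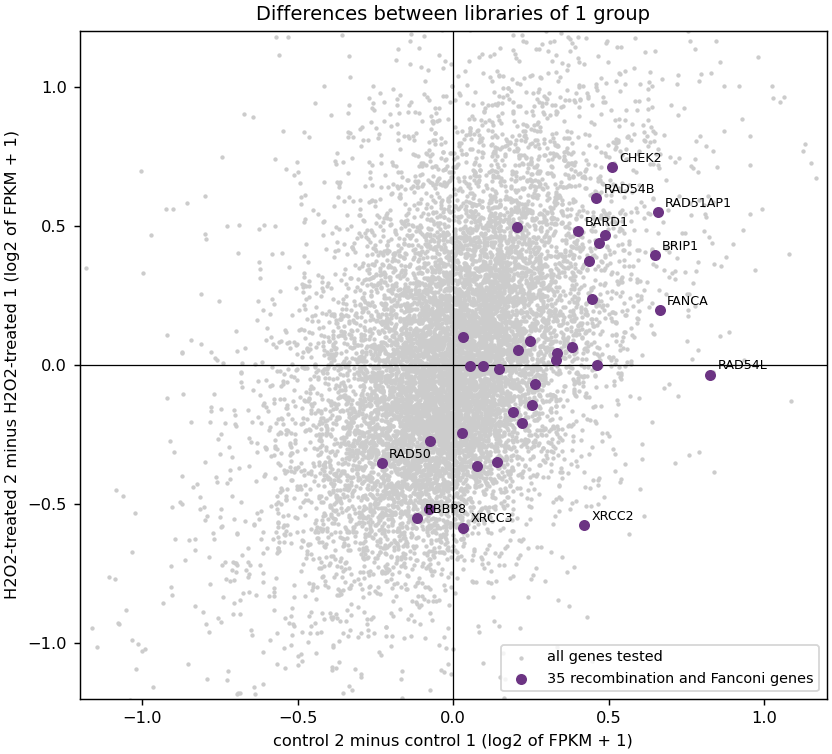
Difference between the libraries of a group on the log2(FPKM + 1) scale, H2O2-treated 2 minus 1 (y axis) against control 2 minus 1 (x axis), for the 35 genes (purple) and all genes tested (grey; 1.2 is the limit of the axes, and grey points beyond it are not drawn). The purple points lie right of 0 on the x axis for 31 of 35 genes and spread to both sides of 0 on the y axis.

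Transcript length went with the difference from the control mean in some libraries. Across all 11318 genes tested, which are not independent, Spearman's rho between the length of the longest coding transcript and the difference from the control mean was 0.33 in treated 1, 0.02 in treated 2, -0.03 in control 1 and 0.03 in control 2. Across the 35 genes rho was 0.40 in treated 1, -0.12 in treated 2, 0.28 in control 1 and -0.28 in control 2, as a description of points that share a library. The controls are compared with their own mean, so their values of rho mirror each other by arithmetic. ATM (13147 bases), ATR (8249 bases) and BRCA1 (7270 bases) are among the long transcripts, and all 3 were highest in treated 1, while FANCL (1698 bases), RAD51AP1 (2163 bases) and FANCG (2631 bases) were lowest there. BRCA2 (11986 bases) was highest in control 2 and CHEK2 (1971 bases) lowest in control 1. The part of length in these values was not tested.

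A ratio of 2 genes within a library does not depend on the factor by which the library is scaled. Ratios were taken for 17 pairs of genes whose proteins bind or act on each other, pairs that were listed with the values already seen. BRCA1 to BARD1 was 6.39 and 3.77 in H2O2-treated cells, against 3.03 and 2.63 in controls. Both treated ratios were above both controls, but they differed from each other by 0.76 on the log2 scale, close to the difference of 0.80 between the groups. RAD51B to RAD51C was 0.0958 and 0.106 in H2O2-treated cells, against 0.0632 and 0.0718 in controls. Here the difference between groups, 0.58 on the log2 scale, exceeded the spread of 0.14 within treated and 0.18 within control cells.

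FANCC to FANCE, neighbours in the core complex, was 1.10 in each of the 2 treated libraries, against 1.49 and 1.54 in controls. The log2 difference of -0.46 was far larger than the spread within treated (0.0013) and control cells (0.043). FANCC to FANCF, in the same complex, overlapped between groups, at 0.379 and 0.464 in H2O2-treated cells, against 0.427 and 0.486 in controls. MRE11 to NBN was 0.884 and 1.14 in H2O2-treated cells, against 0.762 and 0.763 in controls, and RAD51D to XRCC2 was 0.832 and 0.864 in H2O2-treated cells, against 1.64 and 1.11 in controls. ATR to CHEK1 was 0.182 and 0.148 in H2O2-treated cells, against 0.135 and 0.123 in controls. FANCD2 to FANCI, which form a clamp on DNA, was 0.332 and 0.33 in H2O2-treated cells, against 0.345 and 0.382 in controls, a log2 difference of -0.13. FANCA to FANCG, BRCA2 to PALB2 and RAD51C to XRCC3 also overlapped between groups, as did BRCA1 to BRIP1, MRE11 to RAD50 and ATM to CHEK2. In all, 10 of the 17 pairs did not overlap between groups, against 37.6% of the 595 pairs that the 35 genes can form. Many pairs share a gene, and the ratios were not tested further, since 2 libraries a group cannot pass an exact test.

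**Figure D4:**
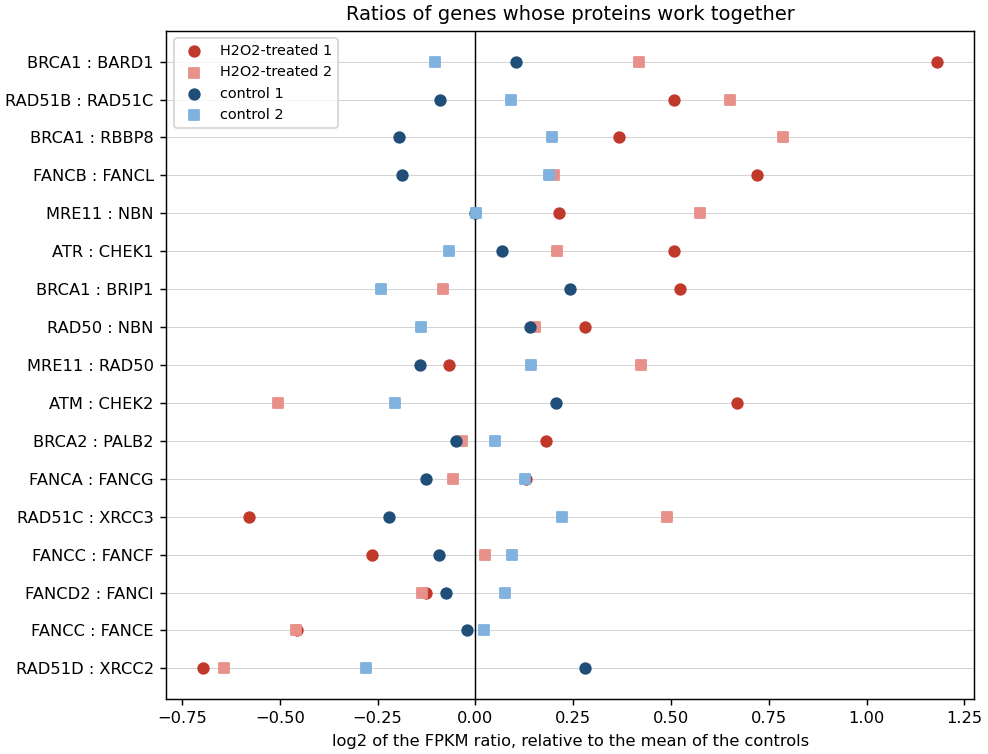
Log2 of the FPKM ratio of 17 gene pairs in each library, relative to the mean of the controls (x axis), ordered by the difference between groups (y axis); red for H2O2-treated and blue for control. BRCA1 to BARD1 stands at the top with a difference of 0.80 and RAD51D to XRCC2 at the bottom with -0.67.

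Many of these genes start back to back with a neighbour. In GENCODE release 29, 15 of the 35 have the start of a protein-coding gene on the opposite strand within 1000 bases of their own outermost start, 16 pairs in all, and 10 of the neighbours were tested. The sign of the log2 change was the same in 8 of the 10 pairs, and in 56% of all 895 such pairs of tested genes, a difference that was not tested. Some of these signs are not firm. C12orf4, beside RAD51AP1, was at -0.0048, and after rescaling to TPM the signs of FANCM, XRCC3, PALB2 and RAD52 turned. The count of pairs on that scale is not given here. MOSPD2, beside FANCB, had 11.5 and 12.5 FPKM in H2O2-treated cells, against 8.15 and 8.57 FPKM in controls, and was the 1 neighbour with an unadjusted limma p under 0.05 (0.026; adjusted p = 0.397). NBR1, beside the upstream start of BRCA1, had 27.5 and 32.3 FPKM in H2O2-treated cells, against 24.2 and 19.9 FPKM in controls (adjusted p = 0.463). NPAT, a histone gene regulator that shares a promoter region with ATM, had 8.85 and 8.74 FPKM in H2O2-treated cells, against 6.73 and 8.04 FPKM in controls. ANKRD49, beside MRE11, had 18.2 and 23.9 FPKM in H2O2-treated cells, against 14.9 and 19.5 FPKM in controls. The pairs that differed in sign were PALB2 with DCTN5 and RAD52 with ERC1. None of these neighbours passed the limma test over all genes. They are named by position, after the values of the 35 were known.

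Other genes of the same and neighbouring pathways, taken from 6 lists, had negative median log2 changes in FPKM as deposited with all libraries in. After rescaling to TPM, which moved the median of all genes tested up to 0.14, the median turned positive in 2 of the 6 lists. The medians were then 0.09 for other recombination and crosslink repair genes, 0.02 for RPA and end choice factors, -0.01 for checkpoint partners, -0.13 for end joining, -0.12 for S phase and -0.16 for G2 and mitosis genes. The choice of control moved the list medians too. In the same order, in FPKM as deposited, they were 0.01, -0.07, -0.06, -0.30, -0.16 and -0.20 without control 2. Without control 1 they were -0.18, -0.16, -0.29, -0.27, -0.44 and -0.53. Of 40 other recombination and crosslink repair genes tested, 0 passed over all genes by limma, 16 had a positive and 24 a negative log2 change, and the median was -0.08. At an unadjusted p under 0.05, 0 were higher and 2 lower. They were CENPS, a DNA-binding partner of FANCM, and RTEL1, a helicase that unwinds recombination intermediates. CENPS had 11.2 and 8.76 FPKM in H2O2-treated cells, against 15.9 and 17.3 FPKM in controls (log2 change -0.69 ± 0.19, SE; adjusted p = 0.314). RTEL1 had 3.24 and 3.76 FPKM in H2O2-treated cells, against 5.34 and 7.89 FPKM in controls (log2 change -0.74 ± 0.22, SE; adjusted p = 0.348). The groups did not overlap in either gene, nor in SWSAP1, a recombination factor, and FAAP20, a core complex subunit, next by p. FAAP20 had 58.6 and 67.7 FPKM in H2O2-treated cells, against 80.7 and 78.5 FPKM in controls, and SWSAP1 had 1.24 and 1.82 FPKM in H2O2-treated cells, against 2.18 and 2.67 FPKM in controls.

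The checkpoint partners of ATR and CHEK1 had a negative log2 change in 13 of 13 genes, with a median of -0.17, but 0 at an unadjusted p under 0.05. TIMELESS, a fork protection protein, had the smallest p among them, at 28.6 and 32.9 FPKM in H2O2-treated cells, against 36.3 and 46.4 FPKM in controls (limma adjusted p = 0.502). ETAA1, CLSPN and TIPIN followed, with log2 changes of -0.30, -0.35 and -0.26. RPA and end choice factors were negative in 10 of 11, with a median of -0.15 and 0 at an unadjusted p under 0.05. In that list RPA3, a subunit of the single-strand binding protein, had 11.6 and 27.2 FPKM in H2O2-treated cells, against 28.0 and 32.9 FPKM in controls. Next by p were SHLD1, RPA2 and MDC1, with log2 changes of -0.28, -0.23 and -0.20.

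Genes of non-homologous end joining, the rival route for broken ends, were negative in 7 of 8, with a median log2 change of -0.32. NHEJ1, which bridges the ends, was the 1 gene lower at an unadjusted limma p under 0.05 (0.0319; adjusted p = 0.415), at 9.50 and 8.90 FPKM in H2O2-treated cells, against 12.8 in each control. XRCC6, the Ku70 subunit, had 221.4 and 237.8 FPKM in H2O2-treated cells, against 296.3 and 295.8 FPKM in controls. PAXX had 47.6 and 38.4 FPKM in H2O2-treated cells, against 63.8 and 50.3 FPKM in controls. LIG4, the ligase of the route, was the exception in sign, at 13.2 and 12.1 FPKM in H2O2-treated cells, against 8.19 and 10.7 FPKM in controls.

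S phase genes, which are expressed in the same part of the cell cycle as many recombination genes, were negative in 15 of 15, with a median log2 change of -0.31. By limma 4 of the 15 were lower at an unadjusted p under 0.05, TYMS, PCNA, MCM5 and GINS2, and 0 passed over all genes. PCNA, the sliding clamp, had 255.2 and 291.1 FPKM in H2O2-treated cells, against 368.5 and 455.9 FPKM in controls (log2 change -0.59 ± 0.19, SE; adjusted p = 0.381). TYMS, which makes thymidylate, had 47.8 and 64.2 FPKM in H2O2-treated cells, against 78.3 and 122.3 FPKM in controls (log2 change -0.81 ± 0.27, SE; adjusted p = 0.377). G2 and mitosis genes were negative in 11 of 11, with a median of -0.34 and 0 at an unadjusted p under 0.05. Their median against the control mean was -0.73 in treated 1 and 0.03 in treated 2, so that without treated 1 the median was 0.03. The 4 with the smallest p, PLK1, TOP2A, AURKB and FOXM1, had log2 changes of -0.56, -0.42, -0.41 and -0.34. The medians of the 35 genes against the control mean were -0.02 in treated 1 and 0.03 in treated 2, while those of S phase genes were -0.35 and -0.26. That difference between lists was not tested. After rescaling to TPM the median of the 35 genes was 0.13 and that of S phase genes -0.12. Medians per library on that scale are not given here.

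**Figure D5:**
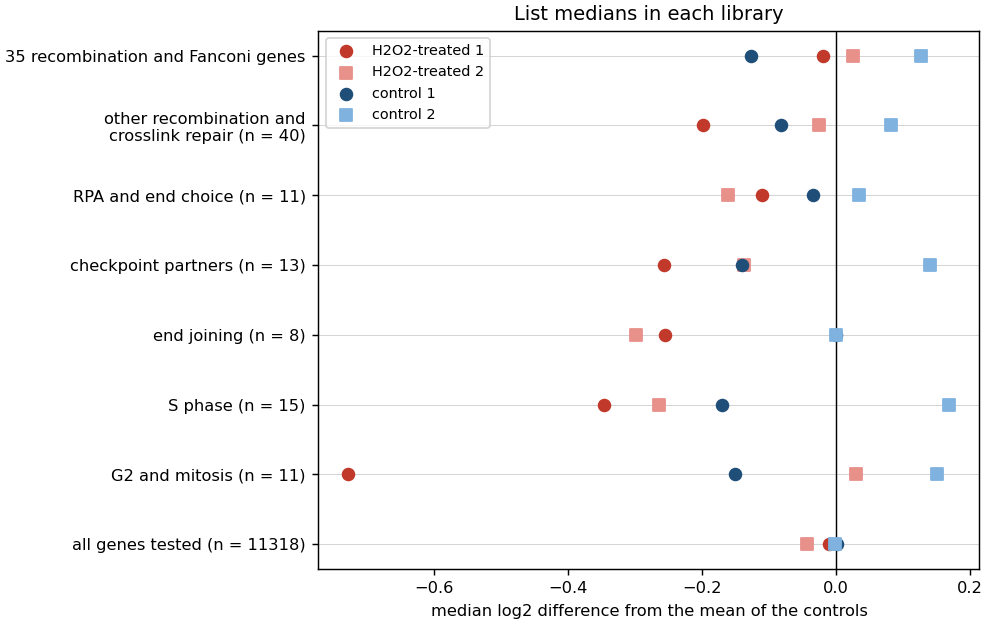
Median log2 difference from the mean of the controls (x axis) for each list of tested genes (y axis) in each library; red for H2O2-treated and blue for control. For the 35 genes both treated libraries, at -0.02 and 0.03, lie between control 1 at -0.13 and control 2 at 0.13. For S phase genes both treated libraries lie below both controls. The controls are compared with their own mean, so their values mirror each other by arithmetic. All values are FPKM as deposited, and medians per library after rescaling to TPM are not given here.

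Summed FPKM over all rows was 574782 and 617668 in H2O2-treated cells and 695837 and 660860 in controls, so rescaling to equal totals moved the median of all genes tested from -0.03 to 0.14. Relative to that median, the 35 genes stood at 0.0057 as deposited and -0.016 after rescaling. Their own summed FPKM was 474.1 and 483.1 in H2O2-treated cells, against 456.1 and 555.6 in controls. The epithelial markers KRT8, KRT18, EPCAM and VIL1 were present at 67.7 FPKM or more in each library, CDX2 was at 1.05 to 4.68 FPKM, and KRT20, CDH17 and LGALS4 were below 1 FPKM. CD68 had 7.65 and 17.7 FPKM in H2O2-treated cells, against 1.92 and 1.83 FPKM in controls. The 6 leukocyte markers summed to 12.5 and 36.7 FPKM in H2O2-treated cells and 5.16 and 6.68 FPKM in controls, while PTPRC and CD3E were at or near 0. The 6 fibroblast markers summed to 4.70 and 12.0 FPKM in H2O2-treated cells and 4.72 and 9.38 FPKM in controls, with COL1A2 and COL3A1 at or near 0. Of these, THY1 had 1.37 and 1.93 FPKM in H2O2-treated cells, against 0.361 and 0.159 FPKM in controls, while LUM and COL1A1 overlapped between groups. The 5 endothelial markers summed to 13.7 and 15.7 FPKM in H2O2-treated cells and 8.94 and 6.46 FPKM in controls, mostly EGFL7 and TIE1, with PECAM1 and CDH5 near 0. The 4 erythroid markers summed to 3.98 and 10.6 FPKM in H2O2-treated cells and 3.50 and 6.86 FPKM in controls, nearly all HBA1, with HBB listed at 0. The part of these markers in the results was not tested. In bulk RNA, fewer cells of a type and less RNA per cell cannot be told apart.

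Some values of the 35 are less certain because reads may be shared. Exons of another protein-coding gene, untranslated parts included, overlap exons of 4 members on the same strand in GENCODE release 29. They are CHEK1 with STT3A, RAD50 with AC116366.3, RAD51D with RAD51L3-RFFL and RAD54B with FSBP. On the opposite strand 10 members have such an overlap, the longest being XRCC3 with KLC1 and FANCA with ZNF276. The libraries kept strand, but the strand setting of the counting is not given in the sources used here. CHEK2 has 4 annotated pseudogene copies, and RBBP8, FANCD2, MRE11 and RAD51AP1 have 1 each. For 7 members the deposited locus was over 1.5 times as long as the gene, among them FANCF and XRCC3.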

How the data were processed

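RNA of SW620 cells was sequenced in 2 H2O2-treated and 2 control libraries, made with a directional kit from total RNA, per the labels' protocols. STAR 2.5, Cufflinks 2.2.1 and hg38 are named in the submitters' processing notes, without their roles. The authors deposited FPKM, 1 value per gene and library. Annotation, filters and read depth: not given in the sources used here. Hence no counting error could be stated. Cufflinks splits shared reads by a model, which makes values of overlapping genes uncertain.

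The 11318 genes that reached 1 FPKM in 2 or more libraries were fitted as log2(FPKM + 1) by limma 3.58.1 with a variance trend in R 4.3.3, with group as the only term (2 residual and 6.28 total degrees of freedom; two-sided; Benjamini-Hochberg over all genes, threshold 0.05). Changes are H2O2-treated minus control, and the pseudocount understates changes of low genes. The model was tested on simulated data. Members and lists were chosen with earlier results of these data known. All members are named; of the other lists up to 4 genes with the smallest p. Of 129 list symbols 128 were matched (HROB as C17orf53); MKI67 is not analysed here, and some listed items are not reported here. Alternatives were 13: other pseudocounts (0.1, 5), filters, scalings, no variance trend, a replicate block and leaving out each library. Genes were matched by Ensembl identifier to GENCODE 29 (GRCh38); promoters come from RefSeq (GRCh38.p14). Figures used Python 3.11.15 and matplotlib 3.10.9.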

Additional observations from a re-analysis of the deposited data

How the results depend on the processing

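No member passed limma's test over all genes under any of the 13 alternatives. Over all genes, where 0 were called, 5 passed when a mean of 5 FPKM was required, 32 passed on the TPM scale and 8 to 140 when 1 library was omitted. A single library of a group is then assumed to vary like the other group. With a replicate block 587 genes were called, 397 higher and 190 lower, and 0 of the members, of which 2 were lower at an unadjusted p under 0.05. Same-numbered libraries deviated together (r = 0.45 across all genes, 0.65 across the members), but the labels give no shared source. The members' median (-0.02) was -0.0773 when a mean of 5 FPKM was required, 0.13 after TPM, 0.0365 after upper-quartile scaling and -0.17 to 0.0821 with 1 library left out. Where a mean of 5 FPKM was required, 29 members remained with unaltered log2 changes, so that median moved through the members left out. The cause of the other shifts was not tested. The other filters, the fit without a variance trend and the replicate block leave a member's log2 change as it is. Of 449 values of single members, these included, 46 changed sign, all under another scaling or with 1 library left out. After TPM the members that changed sign were BRCA2 (0.13), PALB2 (0.0786), RAD51D (0.0236), RAD52 (0.0068), XRCC3 (0.0288), FANCD2 (0.0589), FANCL (0.0387), FANCM (0.11), RAD50 (0.16) and CHEK1 (0.11). After upper-quartile scaling they were BRCA2 (0.0365), FANCM (0.0226), RAD50 (0.0614) and CHEK1 (0.0024), and after quantile normalization BRIP1 (-0.0248), RAD54B (-0.0230), FANCE (-0.0462) and CHEK1 (0.0245). With 1 library left out the log2 change ranged from -0.19 to 0.26 for BLM, -0.12 to 0.0728 for BRCA2, -0.28 to 0.37 for BRIP1, -0.27 to 0.11 for CHEK1, -0.19 to 0.52 for CHEK2, -0.66 to 0.0077 for FANCA and -0.28 to 0.0531 for FANCD2. It ranged from -0.10 to 0.11 for FANCI, -0.39 to 0.11 for FANCL, -0.16 to 0.0821 for FANCM, -0.19 to 0.16 for RAD50, -0.565 to 0.0928 for RAD51AP1, -0.43 to 0.0357 for RAD51C and -0.405 to 0.11 for RAD51D. It ranged from -0.34 to 0.0263 for RAD52, -0.29 to 0.31 for RAD54B, -0.37 to 0.46 for RAD54L and -0.44 to 0.14 for XRCC3.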
